A study of Mus musculus with 3 samples.

Results

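The Hox genes encode homeodomain transcription factors that lie side by side in 4 clusters, Hoxa, Hoxb, Hoxc and Hoxd. The set described here holds 38 of these genes, among 21031 protein-coding genes. They were chosen by name and not by any measured value, though with earlier results of these data known. Peaks were taken as theirs when the deposited list of Isl1-bound regions names one of the 38 as the gene with the nearest transcription start site (TSS), after identical repeated lines were dropped. This gave 21 peaks out of 14082.

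The peaks came from chromatin immunoprecipitation followed by sequencing (ChIP-Seq), which maps the DNA bound by a protein, in cardiac progenitors made from mouse embryonic stem cells and collected on day 5 of differentiation. All samples came from 1 cell line, E14 Tg(Nkx2-5-EmGFP), which carries a green fluorescent reporter of the cardiac gene Nkx2-5. The 2 Isl1 ChIP samples were precipitated with an anti-Isl1 monoclonal antibody and 1 Input sample served as control. There was no other treatment, genotype or time point. BMP4 and later Activin A, VEGF and BMP4 were given during differentiation, then VEGF, bFGF and FGF10 in the plated monolayer, in every sample alike. The study's methods describe a sort for the green reporter for progenitors grown by the hanging drop method. In directed differentiation, they describe this sort for cells used for RNA. They also state that directed differentiation usually made most of the cells, not all, positive for the reporter. The labels of these samples give directed differentiation and name no sort, so reporter-negative cells may have been present in an unstated share. The list holds positions and no expression values, so the labelled cell type could not be checked against marker genes. It combines both replicates and gives no height, score or read number, so neither the depth behind a peak nor the spread between replicates is known and no test between groups was possible. The 95% intervals below are Wilson intervals and cover counting error only, and neighbouring genes of a cluster are not independent. For a count of 0, the share it allows is given as 3 divided by the number of peaks.

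Hox genes give cells their position along the body axis. Their order along the chromosome follows the order in which they act, with the genes of low paralogue group number expressed early and anteriorly and those of high number late and posteriorly, as in limb buds, tail and genitalia. In the forming heart, anterior Hox genes such as Hoxb1 and Hoxa3 are known from the posterior second heart field, where retinoic acid induces them and where Isl1, a LIM-homeodomain factor, also marks progenitors. Polycomb complexes keep silent Hox clusters closed over wide domains rich in CpG dinucleotides.

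The reference sequence at the peak centres came in forms that differ by eye. The following 200 bp stretches of mm9 are centred on the peak midpoint, and capitals mark CpG dinucleotides. The centres at Hoxd13 (chr2:74506286-74506485, plus strand) and in Hoxc13 (chr15:102752032-102752231, plus strand) are shown because they are typical of the start-site peaks that make up most of the set.
Hoxd13: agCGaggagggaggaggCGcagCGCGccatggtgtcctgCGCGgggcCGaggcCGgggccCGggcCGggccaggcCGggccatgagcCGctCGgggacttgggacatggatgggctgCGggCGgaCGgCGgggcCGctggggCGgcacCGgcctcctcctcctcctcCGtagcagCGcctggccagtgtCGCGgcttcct
Hoxc13: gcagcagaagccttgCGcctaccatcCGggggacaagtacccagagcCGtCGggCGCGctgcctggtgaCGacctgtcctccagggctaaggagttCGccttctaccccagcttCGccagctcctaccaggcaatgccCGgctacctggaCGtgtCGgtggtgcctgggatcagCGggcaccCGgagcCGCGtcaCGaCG

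They hold 24 and 18 CpG dinucleotides spread along the whole stretch. The next 3 centres are shown because they hold a simple repeat instead, a long run of GT. They lie in a Hoxb3 intron (chr11:96190915-96191114, plus strand), upstream of Hoxc13 (chr15:102748126-102748325, plus strand) and between Hoxc12 and Hoxc11, in a peak assigned to the long noncoding RNA Hotair (chr15:102773158-102773357, plus strand).
Hoxb3 intron: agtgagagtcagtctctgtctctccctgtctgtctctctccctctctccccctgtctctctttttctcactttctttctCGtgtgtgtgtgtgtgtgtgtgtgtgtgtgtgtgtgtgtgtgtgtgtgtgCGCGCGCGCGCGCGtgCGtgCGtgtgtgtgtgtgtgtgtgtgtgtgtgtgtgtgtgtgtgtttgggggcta
Hoxc13 upstream: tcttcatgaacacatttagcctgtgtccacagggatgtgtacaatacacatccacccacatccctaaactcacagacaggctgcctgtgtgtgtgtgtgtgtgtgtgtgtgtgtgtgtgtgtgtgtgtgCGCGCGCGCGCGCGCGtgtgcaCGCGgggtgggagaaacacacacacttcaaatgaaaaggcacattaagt
Hotair: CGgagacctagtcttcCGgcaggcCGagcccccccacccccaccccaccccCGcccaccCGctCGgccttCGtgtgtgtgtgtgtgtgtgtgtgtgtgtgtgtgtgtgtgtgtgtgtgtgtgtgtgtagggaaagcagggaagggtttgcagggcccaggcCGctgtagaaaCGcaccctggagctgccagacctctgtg

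Of the 38 Hox genes, 18 had an assigned peak (47.4%, 95% interval 32.5 to 62.7%). Over all 21031 protein-coding genes the share was 39.1%, which lies inside that interval. A peak with its midpoint within 1 kb of the TSS was assigned to 15 of the 38 (39.5%, interval 25.6 to 55.3%), against 24.2% of protein-coding genes, which lies just below the interval. More than 1 peak was assigned to 2 of 38 Hox genes (5.26%, interval 1.46 to 17.3%), and the share of protein-coding genes, 11.1%, lies inside this interval. Per gene, the Hox set had 0.553 peaks and protein-coding genes had 0.582, while peaks within 1 kb came to 0.395 per Hox gene and 0.248 per protein-coding gene. With peaks in multi-copy sequence left out, a step chosen after the data were seen and defined below, 18 of 38 Hox genes still had a peak, while the share of protein-coding genes was 28.7%, below the interval, and peaks per gene came to 0.526 and 0.334. The count of Hox genes with a peak was thus within counting error of the background over all peaks and above it over single-copy peaks.

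**Figure D1:**
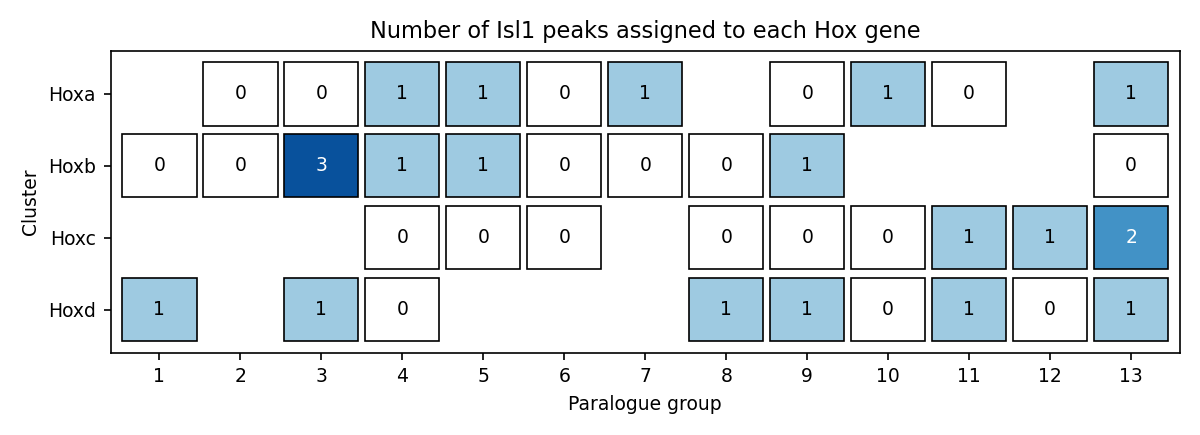
Each box is a Hox gene of the set, with its paralogue group on the horizontal axis and its cluster on the vertical axis. The number in the box, repeated by the shade of blue, is the count of Isl1 peaks assigned to it, which is 0 for 20 genes, 1 for 16, 2 for Hoxc13 and 3 for Hoxb3.

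The 18 genes were spread over all 4 clusters and over anterior and posterior groups. Hoxd had 6 of 9 genes with a peak (66.7%, interval 35.4 to 87.9%), Hoxa 5 of 10 (50%, 23.7 to 76.3%), Hoxb 4 of 10 (40%, 16.8 to 68.7%) and Hoxc 3 of 9 (33.3%, 12.1 to 64.6%). These intervals overlap, so an order of the clusters cannot be read from the counts. By position in the cluster, 3 of 7 genes of paralogue groups 1 to 3, 6 of 15 of groups 4 to 8 and 9 of 16 of groups 9 to 13 had a peak, again with overlapping intervals (15.8 to 75%, 19.8 to 64.3% and 33.2 to 76.9%). No paralogue group had an assigned peak in every cluster that holds it. Group 13 came nearest by share, with peaks at Hoxa13, Hoxc13 and Hoxd13 and none at Hoxb13. By overlap with the annotated gene body, whatever the assigned name, every gene of groups 3 and 11 in the set had a peak.

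The 20 genes without an assigned peak were Hoxa2, Hoxa3, Hoxa6, Hoxa9, Hoxa11, Hoxb1, Hoxb2, Hoxb6, Hoxb7, Hoxb8, Hoxb13, Hoxc4, Hoxc5, Hoxc6, Hoxc8, Hoxc9, Hoxc10, Hoxd4, Hoxd10 and Hoxd12. They include both anterior genes named above from the second heart field. A missing assignment is not a missing peak, since each peak was given to 1 gene only. The annotated body of Hoxa3 was overlapped by 3 peaks, which were assigned to Hoxaas2, Hoxa4 and Hoxa5, and that of Hoxa11 by 1 peak assigned to Hoxa11os. For Hoxb1 the nearest peak edge was 19197 bp from the annotated start and belonged to a Hoxb3 peak. For Hoxb13 it was 77996 bp away, the farthest of the 38.

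The 4 clusters as a whole were dense in peaks for their length. From the first to the last annotated base of their members they span 98.5 kb (Hoxa), 174 kb (Hoxb), 116 kb (Hoxc) and 96.8 kb (Hoxd), and these 485 kb held 23 peaks, or 4.74 per 100 kb, against 0.55 per 100 kb over the genome. With 10 kb added on either side, the number was 24, of which 21 were assigned to Hox genes and 3 to noncoding neighbours, and peaks covered 4.42% of the bases against 0.568% of the genome. The density was 7.1 peaks per 100 kb in Hoxa, 6.2 in Hoxd, 3.46 in Hoxc and 3.45 in Hoxb. The clusters are also dense in genes. The stretch of DNA nearer to a gene's start than to any other had a median of 8.67 kb for the 38 Hox genes and 43.7 kb for 22190 annotated protein-coding genes. Per length the clusters thus held many peaks, and per gene a number near that of protein-coding genes over all peaks (0.553 and 0.582). That stretch was of like size for Hox genes with a peak (median 8.67 kb) and without one (8.28 kb).

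**Figure D2:**
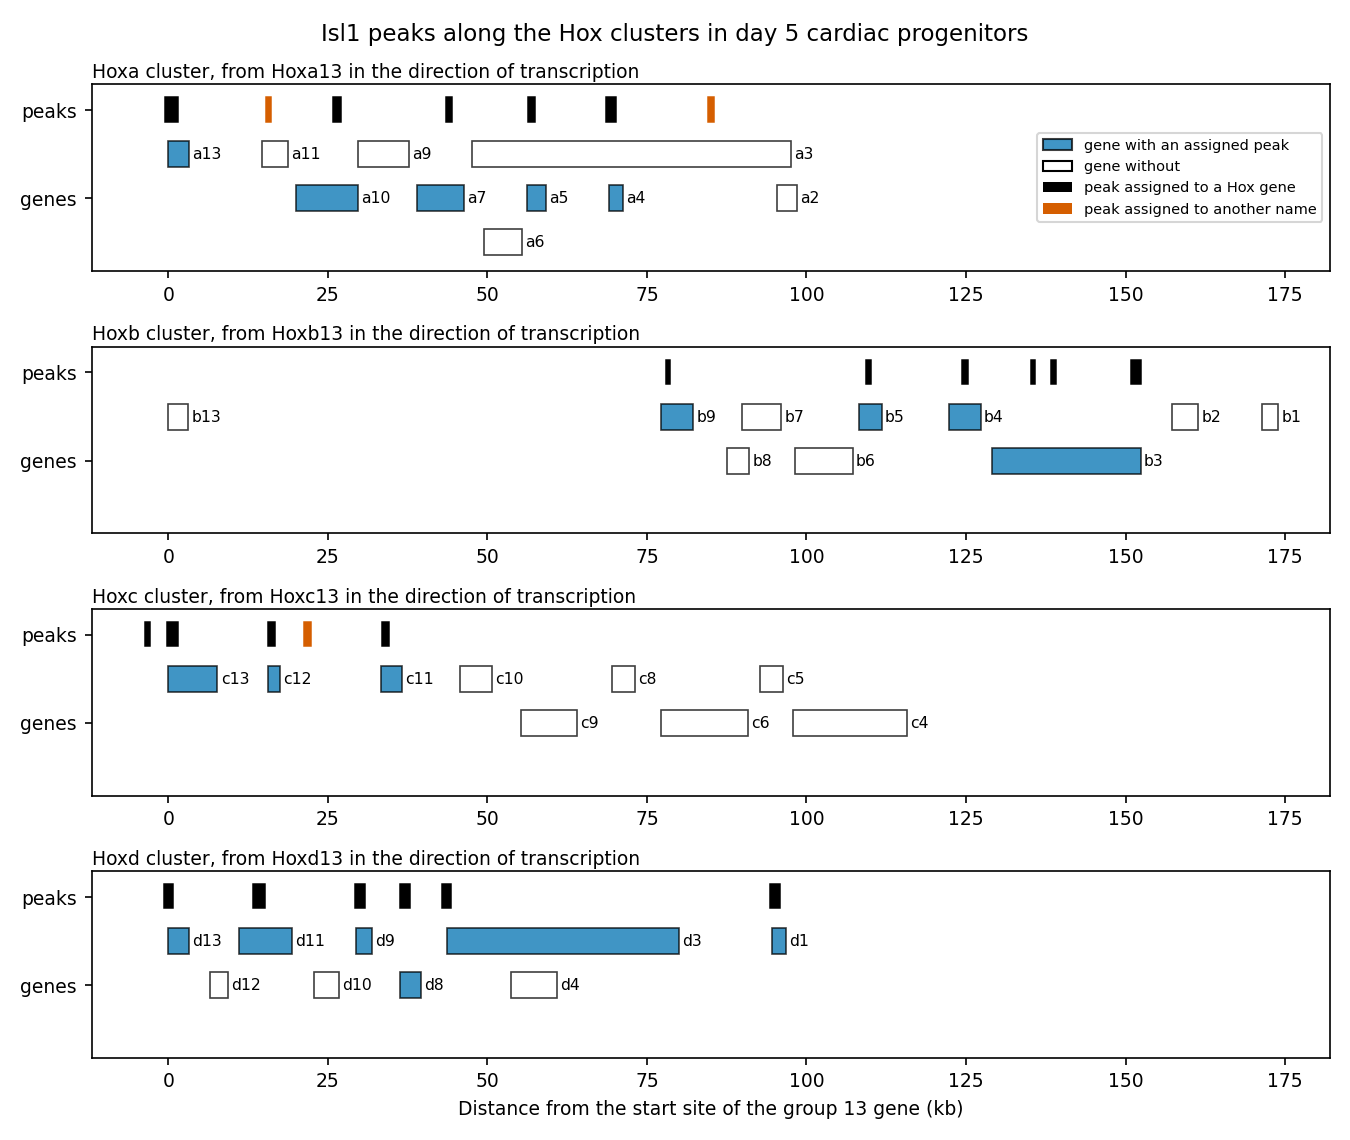
Each panel is a Hox cluster drawn to scale, with distance in kb from the annotated start of its group 13 gene in the direction of transcription, genes as boxes on staggered rows and peaks as bars above them. Blue boxes are the 18 genes with an assigned peak, black bars the 21 Hox peaks and orange bars the 3 peaks assigned to Hoxaas2, Hoxa11os and Hotair. Peaks run through Hoxa from Hoxa13 into Hoxa3, while Hoxb from Hoxb13 to Hoxb9 and Hoxc from Hoxc10 to Hoxc4 have none.

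Peaks were not evenly placed along the clusters. In Hoxa, the widest stretch between neighbouring peaks was 16.6 kb. In Hoxb, the first 78 kb from the start of Hoxb13 held no peak, and all 6 peaks lay between Hoxb9 and Hoxb3. In Hoxc, the peaks ended at Hoxc11, and the remaining 81.3 kb with Hoxc10, Hoxc9, Hoxc8, Hoxc6, Hoxc5 and Hoxc4 held none. In Hoxd, 5 of the 6 peaks lay between Hoxd13 and the start of Hoxd3, followed by 50.1 kb without a peak, which holds Hoxd4, and then by the peak at Hoxd1. The median distance between neighbouring peak midpoints was 12977.5 bp in the clusters and 108811 bp over all chromosomes.

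In Hoxd, every peak was wide and close to a start. The peak at Hoxd13, a gene of digits and genitalia, lay at chr2:74505736-74507034 and was 1298 bp wide, with its midpoint 18 bp downstream of the TSS. Hoxd11, which acts with its Hoxa paralogue in the forearm, had a 1658 bp peak at chr2:74519704-74521362, centred 153 bp downstream. Hoxd9 had a 1343 bp peak at chr2:74535631-74536974, centred 482 bp downstream. All 3 midpoints were in the first coding exon. The peak of Hoxd8 (chr2:74542715-74544037, 1322 bp) had its midpoint at -170 bp from the assigned TSS, within an annotated untranslated region, and that of Hoxd3 (chr2:74549328-74550565, 1237 bp), which patterns the neck vertebrae, at -104 bp, outside annotated exons. These were the only Hox peaks within 1 kb centred upstream of their TSS. Hoxd1, the most anterior gene of the cluster and known from pain-sensing neurons, had a 1378 bp peak at chr2:74600617-74601995, centred 269 bp downstream in the first coding exon.

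In Hoxa, 4 of 5 peaks were within 1 kb of a TSS, and all were downstream of it. Hoxa13, needed for distal limb and genital tract, had the widest Hox peak, 1837 bp at chr6:52209522-52211359, centred at 434 bp. Hoxa10, known from the uterus and the lumbar spine, had a 1040 bp peak at chr6:52183975-52185015, centred at 443 bp. Hoxa5, which is needed for the lung, had a 904 bp peak at chr6:52153527-52154431, centred at 607 bp, and Hoxa4 had a 1366 bp peak at chr6:52140878-52142244, centred at 141 bp. These 4 midpoints were in the first coding exon. The peak of Hoxa7 (chr6:52166628-52167409, 781 bp) was centred in the intron, 1554 bp from the assigned TSS, and reached into both the first and the last coding exon.

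In Hoxc, the 3 most posterior genes carried the peaks. Hoxc13, the Hox gene of hair and nails, had a 1550 bp peak at chr15:102751356-102752906, centred 569 bp downstream of the TSS. A second peak of 538 bp at chr15:102747956-102748494 was centred at -3337 bp, in intergenic sequence, at the GT run printed above. Hoxc12 had an 853 bp peak at chr15:102767229-102768082, centred at 371 bp, and Hoxc11 a 960 bp peak at chr15:102785034-102785994, centred at 557 bp. The 3 downstream midpoints were in the first coding exon of their genes.

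In Hoxb, peaks were narrower and farther from the start. Hoxb9, which patterns the ribs, had a 545 bp peak in an intron at chr11:96133626-96134171, centred 1254 bp from the TSS. Hoxb5 and Hoxb4, the latter known for expanding blood stem cells, had peaks of 687 bp (chr11:96164978-96165665) and 773 bp (chr11:96180015-96180788), centred at 495 bp and 820 bp in their first coding exons. Hoxb3 had 3 peaks. A 458 bp peak at chr11:96190785-96191243, centred at 6574 bp, is the intronic GT run printed above, and a 636 bp peak at chr11:96193945-96194581, centred at 9823 bp, lay in the same gene's introns. The 1379 bp peak at chr11:96206490-96207869, centred at 2096 bp from the assigned TSS, was the only Hox peak with its midpoint in the last coding exon.

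Against all peaks, the Hox peaks lay near starts. Of the 21, 15 had their midpoint within 1 kb of the assigned TSS (71.4%, interval 50 to 86.2%), compared with 38.5% of all peaks. The other 6 (28.6%, 13.8 to 50%) lay between 1 and 10 kb, compared with 10.5%, and 0 of 21 lay beyond 10 kb, which allows a share of up to 14.3%, compared with 51.1%. Peaks were assigned to the nearest TSS, which left little room for Hox peaks beyond 10 kb. The stretch nearest to a start had a median of 8.67 kb for Hox genes and 43.7 kb for annotated protein-coding genes. The share beyond 10 kb therefore cannot be read apart from this spacing. Among the other names in the clusters, the Hoxaas2 peak lay 10246 bp from its assigned TSS. No test beyond the counting intervals was made.

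By median distance within 1 kb of the assigned TSS, Hoxa, Hoxb and Hoxc peaks sat deeper in the gene than all such peaks, and Hoxd peaks did not. This grouping was not among the planned results, and single peaks differed, with Hoxa4 at 141 bp and Hoxd9 at 482 bp. It also depends on the start used. From the annotated gene start, the midpoints at Hoxd8, Hoxd9 and Hoxd11 lay at 704, 565 and 3084 bp. Those at Hoxd13, Hoxd3 and Hoxd1 lay at 18, -40 and 269 bp. The median midpoint of the 15 peaks was 434 bp downstream, ranging from -170 to 820 bp, and that of all 5416 such peaks was 152 bp, with the middle 50% between 39 and 268 bp. The 9 peaks of Hoxa, Hoxb and Hoxc had a median of 495 bp (141 to 820 bp), and the 6 of Hoxd a median of 85.5 bp (-170 to 482 bp), which is below that of all such peaks. The midpoint lay in a coding exon for 14 of 21 Hox peaks (66.7%, interval 45.4 to 82.8%), against 13.7% of all peaks and 23.9% of those within 1 kb. Among peaks within 1 kb, 13 of 15 Hox midpoints lay past the start of the coding sequence (86.7%, 62.1 to 96.3%), against 33.7% of the 4853 peaks, Hox peaks included, for which a coding start could be matched. These were all 9 peaks of Hoxa, Hoxb and Hoxc and 4 of the 6 of Hoxd (66.7%, 30 to 90.3%). The coding start of these genes was itself nearer to the TSS, at a median of 122 bp for the 15 Hox genes and 227 bp over the 4853, and the part this plays was not tested. In total, 15 of 21 Hox peaks overlapped the first coding exon and 2, at Hoxa7 and Hoxb3, the last.

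**Figure D3:**
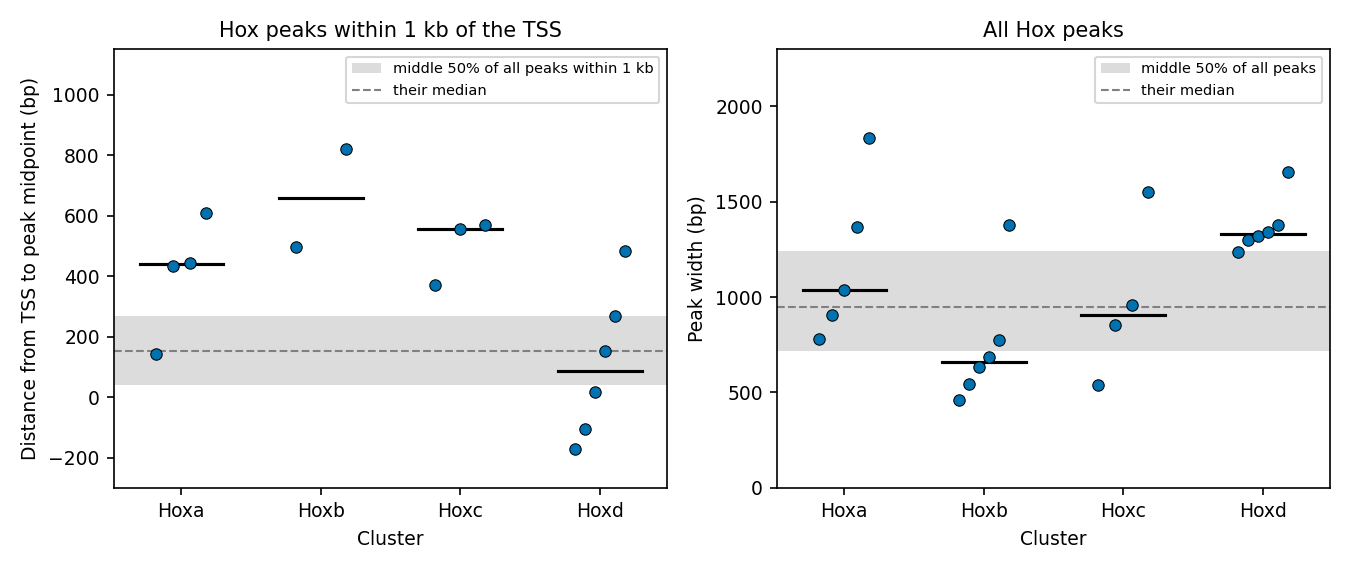
The left panel shows the distance in bp from the assigned TSS to the peak midpoint for the 15 Hox peaks within 1 kb, positive downstream, and the right panel the width in bp of all 21 Hox peaks, each point a peak and each black line a cluster median. The grey band is the middle 50% and the dashed line the median of all peaks within 1 kb (152 bp) or all peaks (947 bp). Most Hoxa, Hoxb and Hoxc points lie above the band on the left, and the Hoxd points are wide on the right, from 1237 to 1658 bp.

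Width differed between clusters. Over all 21 Hox peaks it had a median of 1040 bp and ran from 458 to 1837 bp, beside a median of 947 bp for all peaks and 1050 bp for those within 1 kb of a TSS. The 6 Hoxd peaks had a median of 1332.5 bp (1237 to 1658 bp), the 5 Hoxa peaks 1040 bp (781 to 1837 bp), the 4 Hoxc peaks 906.5 bp (538 to 1550 bp) and the 6 Hoxb peaks 661.5 bp (458 to 1379 bp). Every Hoxd peak was wider than 5 of the 6 Hoxb peaks, and the last-exon Hoxb3 peak overlapped the Hoxd range. The Hoxb peaks were also the farthest from starts, with a median absolute distance of 1675 bp against 161.5 bp in Hoxd. Peaks of 1 cluster are not replicates, so these differences were not tested.

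The base composition of Hox peaks resembled that of start-site peaks. Their GC content had a median of 65.1% (47.9 to 76.1%), beside 60.8% for all peaks, 67.6% for peaks within 1 kb of a TSS and 48.5% for the sequence 2 kb to either side of the Hox peaks. The CpG observed to expected ratio, which is near 1 where CpG dinucleotides are not depleted, had a median of 0.84, beside 0.57 and 0.82. The highest values were those of the Hoxd8 peak, with 76.1% GC and a ratio of 1.01. The lowest ratios, 0.40 and 0.46, were those of the whole peaks that hold the GT runs at Hoxb3 and upstream of Hoxc13. In the central 200 bp of these peaks, printed above, the ratios were 0.71 and 0.73.

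**Figure D4:**
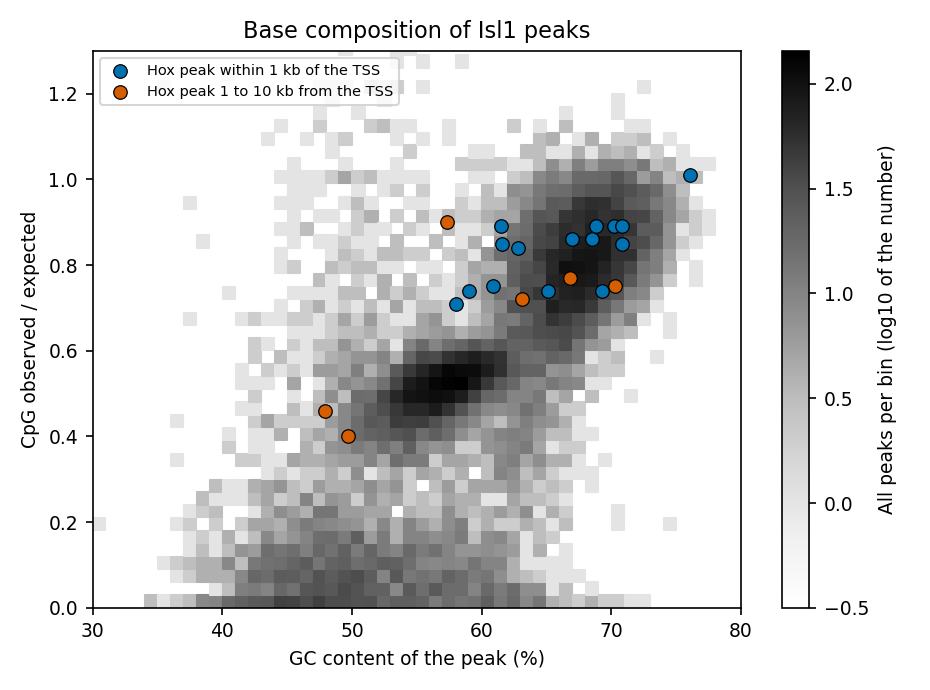
The GC content of each peak in percent is plotted against its CpG observed to expected ratio, with all peaks in grey bins, darker where more peaks fall, on a log10 scale of their number. Blue points are the 15 Hox peaks within 1 kb of the TSS, which range from 58 to 76.1% GC and from 0.71 to 1.01 in ratio, and orange points the 6 farther ones, 2 of which (ratios 0.40 and 0.46) stand apart from the others. A few grey bins fall outside the axes.

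Few Hox peaks lay in sequence with many copies in the genome, but simple GT runs occurred in some. A peak was called multi-copy when the 31-base words of its central 200 bp occurred at a median of 2 or more places in the genome. This held for 1 of 21 Hox peaks (4.76%, interval 0.846 to 22.7%), 46.5% of all peaks and 2.62% of those within 1 kb of a TSS. The 1 peak was the GT run in the Hoxb3 intron, with a median of 12 copies. A run of at least 10 GT units on either strand was present in the central 200 bp of 2 of 21 Hox peaks (9.52%, interval 2.65 to 28.9%, against 3.68% of all peaks), with 24 units at Hoxb3 and 21 upstream of Hoxc13, and in the Hotair peak with 28. This measure was chosen after the sequences were seen. Both were among the 6 Hox peaks more than 1 kb from a TSS (33.3%, interval 9.68 to 70%), where 5.74% of all such peaks had a run in the centre. Within 1 kb it was 0 of 15 Hox peaks, which allows a share of up to 20%, and 0.388% of all. A run of 22 units lay off the centre of the Hoxd3 peak, which makes 3 of 21 Hox peaks with a run anywhere (14.3%, interval 4.98 to 34.6%) against 7.41% of all peaks.

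Strings that LIM-homeodomain, Hox and cofactor proteins are known to prefer were searched in the peaks. Both strands of the central 200 bp were searched for 6 strings, of which none contains another. CTAATTG stood for the LIM-homeodomain type, as CTAATGG did. TAATTA stood for homeodomains in general. TGATNNAT stood for Hox proteins bound with Pbx. TGACAG stood for the Meis family, and AGATAA for Gata factors, which act beside Isl1 in heart progenitors. None of the 21 Hox centres held any of the 6 strings, which allows a share of up to 14.3%. At least 1 string was present in 17.8% of all centres, above that limit. For centres within 1 kb of a TSS the share was 8.01%, below it. Apart from TGACAG, the strings were rare in the centres of all peaks too. Their shares were 0.192% for CTAATTG, 0.22% for CTAATGG, 0.27% for TAATTA, 0.916% for TGATNNAT and 1.7% for AGATAA. A count of 0 is at the background for these. TGACAG was more frequent, at 14.9% of all centres and 6.54% of those within 1 kb of a TSS. The share of all centres lies above the 14.3% limit and inside the Wilson interval of the Hox count, which reaches 15.5%. The share within 1 kb lies below both bounds. Over the whole peak, 14 of 21 held at least 1 string (66.7%, interval 45.4 to 82.8%), against 61.4% and 52.5%. A string match is a description of the letters and not a binding site, and wider peaks have more chance to hold one.

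TAATTA was more frequent in Hox peaks, over their whole width, than in the list. It occurred in 6 of 21 Hox peaks (28.6%, interval 13.8 to 50%), against 5.87% of all peaks and 3.10% of those within 1 kb of a TSS. The matches are shown on the gene strand with 12 bases on either side and the string in capitals, since they are the homeodomain-type letters under Hox peaks. They lie in introns of Hoxa4 (chr6:52140968-52140997, minus strand), Hoxb4 (chr11:96180681-96180710, plus strand), Hoxb3 (chr11:96206793-96206822, plus strand) and Hoxa7 (chr6:52166873-52166902, minus strand), in the coding exon of Hoxa5 (chr6:52154267-52154296, minus strand) and in an annotated untranslated region of Hoxd11 (chr2:74520281-74520310, plus strand).
Hoxa4: ctgttagggcagTAATTAtagcccccataa
Hoxb4: ttcagagccacaTAATTAcatcgcccataa
Hoxb3: cggcgtgttcagTAATTAtcttttatttca
Hoxa7: cctttctggtttTAATTAgagctgaggcgc
Hoxa5: ctaccagttgcaTAATTAtggagatcatag
Hoxd11: cgtcacgtgacaTAATTAccaccagaatca

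Hoxa4 and Hoxb4, paralogues of group 4, had the most alike flanks of the 15 pairs, with 9 of the 12 bases after the string the same and 3 of the 12 before it. All 6 matches lay off the centre, from 133 bp from the midpoint at Hoxa7 to 581 bp at Hoxa4. TGATNNAT occurred in 4 of 21 Hox peaks (19%, interval 7.67 to 40%), at Hoxa4, Hoxa5, Hoxd9 and Hoxd11, against 10.9% of all peaks and 7.07% of those within 1 kb. CTAATTG occurred in 1, at Hoxd9, against 2.23% and 2.4%, and CTAATGG in none, against 2.85% and 2.84%. The pair of matches in the Hoxd9 peak is shown, with the strings in capitals, as the only peak with both the LIM-homeodomain type and the Hox with Pbx type. They lie in an annotated untranslated region (chr2:74535877-74535905, plus strand) and in the intron (chr2:74536904-74536933, plus strand), 414 bp and 613 bp from the midpoint.
Hoxd9 CTAATTG: gcccggcagctCTAATTGcaacgctcctg
Hoxd9 TGATNNAT: aaattgcccccTGATTTATtgctgaaacct

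TGACAG went the other way, in 5 of 21 Hox peaks (23.8%, interval 10.6 to 45.1%) against 42.5% of all peaks and 38.9% of those within 1 kb. AGATAA was found in 5 of 21 as well, against 17.4% and 10.2%. With 21 peaks, the intervals are wide. That for TGACAG includes both background shares, and that for AGATAA the share of all peaks, with the share at starts just below it.

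The clusters held 3 peaks with another name, all of noncoding transcripts. The peak of Hoxa11os, an antisense transcript of Hoxa11, was 773 bp wide at chr6:52194856-52195629, with its midpoint at the TSS of Hoxa11os and in a coding exon of Hoxa11, which had no assigned peak. The peak of Hoxaas2, a Hoxa antisense transcript, was 805 bp wide at chr6:52125517-52126322, in an intron of Hoxa3. The Hotair peak was 828 bp wide at chr15:102772843-102773671, in intergenic sequence. When a peak was given to every gene whose annotated body, extended by 1 kb, it overlapped, 21 of the 38 Hox genes had one, from 22 peaks. The share of all protein-coding genes under this rule is not given here, so the count cannot be set against a background.

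The proteins that work with Hox factors or set their expression were looked up in the same list, from lists chosen with earlier results of these data known. The TALE homeodomain proteins of the Meis, Pbx and Pknox families bind DNA together with Hox proteins. Of 8 such genes, 5 had a peak (62.5%, interval 30.6 to 86.3%, against 39.1% of protein-coding genes). Each of the 5 had one within 1 kb, so that share and interval were the same, against 24.2% of protein-coding genes. They were Meis1 at -910 bp, Pbx2 at -62 bp, Pbx3 at 31 bp, Pknox1 at 168 bp and Pknox2 at 413 bp. Meis2, Meis3 and Pbx4 had none.

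Of 14 upstream regulators, comprising Cdx factors, retinoic acid enzymes and receptors and Gdf11, 11 had a peak (78.6%, interval 52.4 to 92.4%, against 39.1% of protein-coding genes) and 7 had one within 1 kb (50%, 26.8 to 73.2%, against 24.2%). The latter were Cdx1, a direct activator of Hox genes (95 bp), the retinoic acid receptor genes Rara (-112 bp), Rarg (65 and -691 bp), Rxra (12 bp) and Rxrb (200 bp), Aldh1a2, which makes retinoic acid (-6 bp), and Gdf11, a signal for posterior Hox genes (141 bp). Cdx2, Cdx4 and Rxrg had none. The 3 Rarb peaks lay far from the TSS, at -77620, 56475 and 108003 bp, in multi-copy sequence with a median of 172, 2186 and 2639 copies. Cyp26a1 was counted only through a peak at 117583 bp with a median of 42 copies. Peaks in multi-copy sequence were kept in the counts of the regulator lists.

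Of 17 chromatin regulators of Hox genes, 16 had a peak (94.1%, interval 73 to 99%, against 39.1%) and 14 had one within 1 kb (82.4%, 59 to 93.8%, against 24.2%). They were Kmt2a, the trithorax-type methyltransferase, and the Polycomb genes Ezh1, Ezh2, Suz12, Jarid2, Ring1, Rnf2, Bmi1, Pcgf2, Cbx2, Cbx7, Cbx8, Phc1 and Phc2, with midpoints from -235 bp at Cbx8 to 249 bp at Cbx2. Eed had none. The list holds genes expressed in many cell types, so its share is not read as particular to Hox regulation.

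Beside other homeobox families, the Hox genes had fewer peaks per gene. All 6 Iroquois genes had a peak (100%, interval 61 to 100%), as did 8 of 14 Nkx genes (57.1%, 32.6 to 78.6%). Among Lhx and Lmx genes it was 8 of 10 (80%, 49 to 94.3%). The share of protein-coding genes, 39.1%, lies inside the Nkx interval and below the others. Peaks per gene came to 2.5, 0.857 and 0.9 in this order, while the Hox genes had 0.553. Multi-copy sequence held 8 of the 15 Iroquois peaks, 3 of 12 Nkx peaks, 2 of 9 Lhx and Lmx peaks and 1 of 21 Hox peaks. Without these, 4 of 6 Iroquois, 7 of 14 Nkx, 6 of 10 Lhx and Lmx and 18 of 38 Hox genes had a peak. The share of protein-coding genes was then 28.7%. Peaks per gene fell to 1.17, 0.643, 0.7 and 0.526 in the same order. Peaks within 1 kb came to 0.667, 0.429 and 0.7 per gene in these families and to 0.395 in the Hox set. The families differ in how far their genes lie from their neighbours, and the difference was not tested.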

How the data were processed

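Sequenced were 1 Input and 2 replicates of the Isl1 ChIP. The authors aligned reads to mm9 with Bowtie2, removed duplicates with Picard 1.136, called peaks with MACS14 without a fragment model, removed blacklisted regions, kept areas common to both replicates with bedtools 2.15 and annotated each with its nearest TSS using HOMER. The deposited list gives coordinates and distances in bp, with no count, score or signal. Of 14165 lines, 14082 were distinct. Starts may be off by 1 bp, since the file does not state its counting. The list and GENCODE place some starts differently, so midpoints were placed in exons by GENCODE on mm9 and distances to the TSS are the deposited ones. RefSeq's GRCm38.p6 gene table was used for names only. Sequences are those of mm9. Copy numbers counted 31-base words over the genome. Motif searches, intervals and merging were checked on simulated data. Python 3.11.15, numpy 2.4.6 and pysam 0.24.0 were used. Members and gene lists were chosen with earlier results of these data known. Named were every member, other names in the cluster spans and, of the regulator lists, genes with a peak within 1 kb or with none. Rarb, Cyp26a1, Kdm6a, GT runs and the single-copy counts per gene were added after values were seen. Hox genes outside the set were not analysed here, and some genes of the regulator lists are not reported here. Alternative widths, distances, flanks, assignments and windows were tried.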

Additional observations from a re-analysis of the deposited data

How the results depend on the processing

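The 14 results were recomputed with 34 alternative values, of which 26 left a share or median within its 95% interval or a count within 1.5 times. Of the other 8, the median GC content of Hox peaks was 71.5% in the central 200 bp, the share of the cluster spans under a peak was 4.77% without flanks, 3.03% with 50 kb flanks and 4.34% with peaks of at least 500 bp, the multi-copy share was 0% with peaks of at least 500 bp, which leaves out the Hoxb3 repeat, and the share with a motif string was 66.7% over the whole peak. At single-copy sequence, an alternative chosen after seeing the data, peaks per gene came to 1.17 for Iroquois genes and 0.334 for protein-coding genes. The cause of these moves was not tested beyond the change of window or peaks that defines each. No paired analysis was possible because the list combines both replicates and the Input has only 1 sample. Leaving out each replicate was not possible for the same reason. No depth or height is known, so absence from the list does not show that a Hox gene was free of Isl1.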

Other observations

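The genes of the same loci that are no Hox genes were looked at after the values above were seen. The peak nearest to the Hoxd cluster on its posterior side was that of Evx2, a homeobox gene that shares its regulation in limb and tail with posterior Hoxd genes. It was 1401 bp wide at chr2:74493205-74494606, with its midpoint in a coding exon. Beside Hoxa, a 460 bp peak at chr6:52072216-52072676 was assigned to Halr1, a noncoding transcript of the locus. It was poor in GC (39.9%) and in CpG dinucleotides (ratio 0.22), below every Hox peak on both measures.

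The Hox clusters also hold miRNA genes that target Hox transcripts. No peak was within 1 kb of any of the 6 found. The nearest peak edge was 1.43 kb from Mir10a (the Hoxb4 peak), 3.81 kb from Mir196b, 7.05 kb from Mir196a-1, 13.6 kb from Mir10b, 17.8 kb from Mir196a-2 and 59.3 kb from Mir615.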
